A study of Homo sapiens with 12 samples.

Results

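The S100 proteins are small calcium-binding proteins, and 10 of their genes were followed here in RNA-seq of esophageal squamous carcinoma cells: S100A2, S100A4, S100A6, S100A7, S100A8, S100A9, S100A10, S100A11, S100A14 and S100A16. They were chosen by name, as a fixed list, out of 38516 genes in the deposited table, and all 10 were found there. RNA was measured in KYSE150 and KYSE510, established cell lines of human esophageal squamous cell carcinoma, grown in RPMI-1640 medium with fetal bovine serum. Each line had 3 libraries of control cells and 3 libraries of cells in which HCP5, a long non-coding RNA gene, was silenced, so that 4 groups and 12 libraries were compared. The title of the series links HCP5 to apoptosis, to c-Myc and to the protein UTP3. Each line is a single line, so a difference between lines is one between KYSE150 and KYSE510 only. The labels do not say whether the 3 libraries of a group came from separate cultures, so p-values measure only the spread between these libraries, which may be technical.

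An S100 protein folds around a pair of EF-hand loops, and in most members calcium binding to these loops opens a surface that holds a partner protein. Most S100 genes lie side by side on the long arm of chromosome 1, in the region that also holds the genes of epidermal barrier formation, and stratified epithelia such as the esophageal lining express many of them. Some members act mainly inside cells (S100A10 on annexin A2, S100A11 on annexin A1, S100A4 on non-muscle myosin), while S100A7, S100A8 and S100A9 are also secreted and act in defence against microbes and in inflammation.

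The 10 genes occupy 2 stretches of chromosome 1 in the coordinates of the deposited table (GRCh38). S100A10 (151982915 to 151994390) and S100A11 (152032506 to 152047907) lie apart from the other 8, which lie between 153357854 and 153616986. S100A9 is on the plus strand and the other 9 are on the minus strand. Promoter sequences from RefSeq (GRCh38.p14) were listed for 10 of 10 genes, with 14 start sites in all. The letters TATAAA, the core of a TATA box, were present on the gene's strand within 50 bases before a listed start for 4 of the 10 genes, S100A4, S100A7, S100A8 and S100A9. Of 35116 promoters of the same length, 2.63% held these letters in the same place, a share per start and not per gene. These 4 genes were also the lowest of the 10 in RPKM in each of the 4 groups, at places 7 to 10, whereas the 6 genes without these letters took places 1 to 6. Each line below gives 30 bases, from 40 to 11 bases before a start, 5′ to 3′ on the gene's strand, with TATAAA in capitals. The first 4 belong to the genes with the letters and the last 3 to genes of higher RPKM, for comparison.
S100A4 (chr1:153545817-153545846, minus strand): tggctggggTATAAAtaggtcagacctctg
S100A7 (chr1:153460662-153460691, minus strand): caggctgagcctTATAAAggactgctcttt
S100A8 (chr1:153391084-153391113, minus strand, the second listed start): agcctaaccgcTATAAAaaggagctgcctc
S100A9 (chr1:153357814-153357843, plus strand): caggagctgccTATAAAtgccgagcctgca
S100A6 (chr1:153536002-153536031, minus strand): caccgaccgctataaggccagtcggactgc
S100A14 (chr1:153616336-153616365, minus strand): cttcccccaggtataagagctgagctcagg
S100A11 (chr1:152037015-152037044, minus strand): gtaaggcttgggcaaggctgggccgggaag

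The related letters TATAAG stood in the same place in 2 of the 10 genes, S100A6 and S100A14, and in 1.10% of all promoters. Over the whole 300 bases and both strands, CACGTG, the letters of the E-box bound by MYC and other factors, was in none of the 14 windows and in 7.26% of all promoters. TGANTCA, the letters of an AP-1 site, which read the same on either strand, was in 1 window of S100A2 and in 7.71% of all promoters. A match of letters is a description of the sequence, and whether it bears on the RPKM of these genes was not tested.

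Depth ran from 20035025 to 28202422 reads assigned to genes per library, and all 3 silenced libraries of KYSE150 were deeper than its 3 controls, a difference whose part in the KYSE150 values was not tested. HCP5 itself read 0.779, 0.745 and 0.786 RPKM (the reads of a gene divided by its exon length and by the depth of its library) in KYSE150 controls and 0.315, 0.418 and 0.579 in silenced libraries of that line. In KYSE510 it read 0.914, 1.85 and 1.40 RPKM in controls and 0.505, 0.951 and 0.948 after silencing. The groups did not overlap in KYSE150 and overlapped in KYSE510, and within same-numbered pairs HCP5 was lower in the silenced library throughout. Of the listed squamous markers 10 of 10 were tested, and their summed RPKM ran from 1112 to 3138. High single genes weigh most in this sum, such as SFN, with means of 521 RPKM in KYSE150 controls and 720 in KYSE510 controls. PKP1 averaged 8.12 RPKM in KYSE150 controls and 0.0746 in KYSE510 controls (36 reads over 3 libraries), and reached at most 0.155 in a KYSE510 library. The sum and the number tested therefore do not show that each line expressed every listed marker. Of 10 listed myeloid markers 9 were in the table, and they summed to 0.497 RPKM at most. The 8 fibroblast markers summed to 0.901 RPKM at most. In RNA from whole cultures, fewer cells of a type and less RNA per cell cannot be told apart.

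RPKM is scaled to the summed exon length of a gene, so the order of genes below depends on that length. Over the KYSE150 controls, S100A11 (680 exon bases) had 15648 reads and S100A10 (1543 exon bases) had 26148. By RPKM, 6 of the 10 members were among the most abundant transcripts of these cells. S100A11 was the highest of the 10 in every group, at 362 ± 37.8 RPKM in KYSE150 controls, 423 ± 71.4 in KYSE150 silenced, 513 ± 68.3 in KYSE510 controls and 587 ± 92.9 in KYSE510 silenced libraries (SD, n = 3 each). Its mean lay above 99.3% of the genes tested in KYSE150 controls and above 99.5% in KYSE510 controls. S100A10, S100A2, S100A16, S100A14 and S100A6 followed, the lowest of these means being 39.3 ± 4.73 RPKM, for S100A14 in KYSE150 controls. Summed over the 10 genes, KYSE150 controls held 1030 ± 219 RPKM and KYSE510 controls 1675 ± 190.2 (SD, n = 3), which is 0.247% and 0.370% of all RPKM of a library.

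The order of levels in RPKM differed between the lines. In KYSE150 controls, S100A11 was above S100A10 in all 3 libraries without overlap, S100A10 (266 ± 57.2 RPKM) and S100A2 (246 ± 98.8) overlapped, and S100A16 (69.7 ± 19.2), S100A6 (43.8 ± 4.38) and S100A14 came next, the last pair overlapping. In KYSE510 controls, S100A6 (357 ± 29.7 RPKM) moved up to the second place, overlapping with S100A2 (354 ± 51.3), and S100A10 (196 ± 11.3), S100A16 (149 ± 22.9) and S100A14 (90.1 ± 12) followed without overlap. A wide step separated these genes from S100A9, which had 2.54 ± 0.954 RPKM in KYSE150 controls and 10.9 ± 3.80 in KYSE510 controls. S100A4 followed at 0.344 ± 0.116 and 2.68 ± 0.580 RPKM. S100A7 and S100A8 were at or near 0 in KYSE150 and under 5 RPKM in every library of KYSE510.

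**Figure D1:**
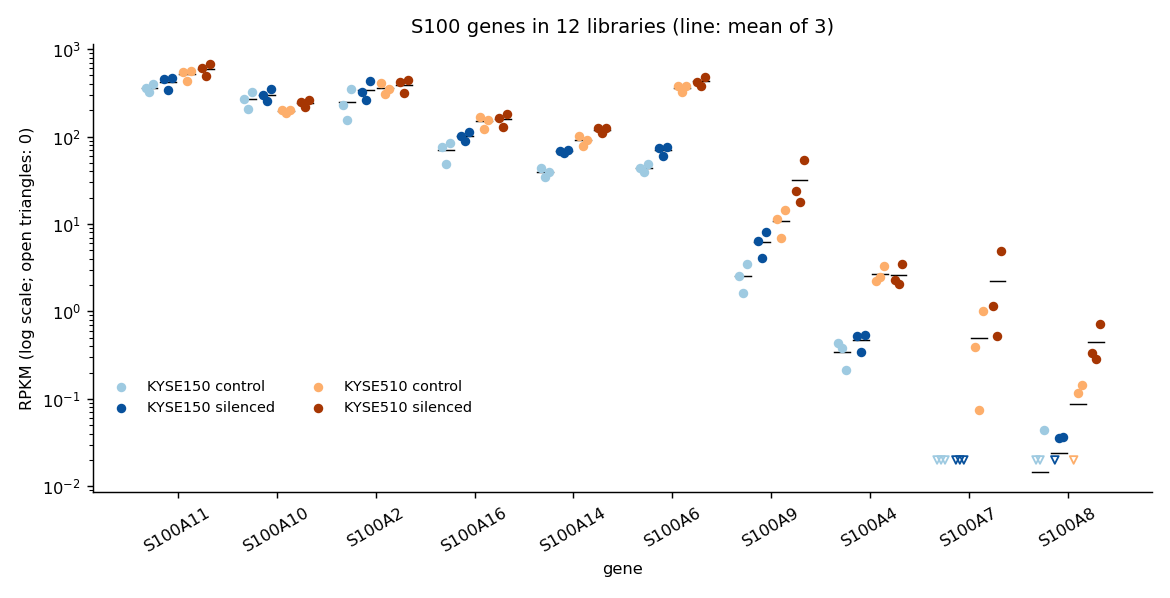
RPKM of the 10 S100 genes (log scale) in each of the 12 libraries, grouped by line and by control or HCP5-silenced cells; points are libraries, horizontal lines are means of 3, and open triangles stand for 0. S100A6 moves from a mean of 43.8 RPKM in KYSE150 controls to 357 in KYSE510 controls, and S100A7 is at 0 in all 6 KYSE150 libraries.

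The first comparison asked how the lines differ in these genes. Most members had more transcript in KYSE510. S100A4 and S100A7 passed the filter on low values only through KYSE510. Their comparison between lines is therefore not independent of the filter, and they are left out of the counts here. Of the 7 members that passed in each line alone, 5 were higher in KYSE510 controls, namely S100A6, S100A9, S100A14, S100A16 and S100A11, and 1, S100A10, was lower (limma, adjusted p under 0.05). Of all genes tested, 28.3% were called higher and 33.7% lower in KYSE510 controls. The shares and medians over all genes given here were not limited to genes that passed in each line alone. The 7 members and all genes were therefore filtered differently. The median log2 difference was 1.12 over the 7 members and -0.07 over all genes. Among silenced libraries the same 5 were higher and 0 of 7 lower, against 24.2% and 39.8% of all genes, and the medians were 0.63 and -0.19. Both comparisons came from a single fit to all 12 libraries, with a shared estimate of spread, so the second is not independent of the first. All 3 KYSE510 libraries lay above all 3 KYSE150 libraries for 5 of the 7 among controls, where 28.5% of all genes did so, and for 5 among silenced libraries, against 26.6%. Centring each library on its median gave 5449 genes higher and 5847 lower among controls and 5656 higher and 5461 lower among silenced libraries, out of 17823.

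S100A6, also called calcyclin, had the largest log2 difference of the 7 members that passed in each line. It read 44.2, 39.2 and 48.0 RPKM in KYSE150 controls and 374, 323 and 375 in KYSE510 controls, so no library of one line came near the other. By limma it was higher by 3.02 on the log2 scale (SE 0.12, adjusted p 2.67e-09), and by 2.61 (SE 0.12, adjusted p 9.08e-09) among silenced libraries. Relative to S100A2, of the same gene cluster, S100A6 stood at 0.136 to 0.252 in the 6 KYSE150 libraries and at 0.914 to 1.23 in the 6 KYSE510 libraries. S100A4, also known as metastasin, a protein linked to cell motility, was the other intracellular member with a wide gap. It had 0.438, 0.380 and 0.215 RPKM in KYSE150 controls, from 5 to 9 reads each, and 2.23, 2.47 and 3.33 in KYSE510 controls, from 55 to 94 reads. The fitted difference was 1.91 (SE 0.19), given as a description because of the filter, on the log2(RPKM + 0.5) scale, which understates changes of low genes: the ratio of mean RPKM was 7.78, and the log2 value was 3.04 when the recovered reads were tested with voom and 1.44 with a pseudocount of 1.

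The annexin-binding members went in opposite directions. S100A11 read 359, 326 and 402 RPKM in KYSE150 controls and 547, 435 and 558 in KYSE510 controls, a log2 difference of 0.50 (SE 0.16, limma, adjusted p 0.0176). That call was lost on leaving out KYSE150 control 2 (adjusted p 0.0626), KYSE510 control 1 (0.0569) or KYSE510 control 3 (0.0643). S100A10, also called p11, had 269.7, 207 and 321 RPKM in KYSE150 controls and 204, 183 and 202 in KYSE510 controls. It was lower in KYSE510 by a narrow margin (log2 -0.41, SE 0.16, limma, adjusted p 0.0381), and every KYSE510 control lay below every KYSE150 control. The call was lost without KYSE150 control 1 (adjusted p 0.0925) or 3 (0.144), without KYSE510 control 1 (0.0598), 2 (0.110) or 3 (0.0657) and without KYSE510 silenced 1 (0.0502). It was also absent with quantile normalization (0.0539), voom (0.0607), no filter (0.0793) or the 6 control libraries alone (0.0619), and among silenced libraries the value was -0.30 (SE 0.16, adjusted p 0.115).

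S100A14 and S100A16, epithelial members whose genes lie next to each other and whose proteins can bind each other, were higher in KYSE510. S100A14 read 43.9, 34.5 and 39.6 RPKM in KYSE150 controls and 101, 77.2 and 92.4 in KYSE510 controls, without overlap. In limma the log2 difference was 1.18 (SE 0.11, adjusted p 4.00e-06), and 0.81 (SE 0.11, adjusted p 8.02e-05) among silenced libraries. S100A16 read 75.7, 48.2 and 85.1 RPKM in KYSE150 controls and 168, 123 and 155 in KYSE510 controls. It differed by 1.12 (SE 0.21, limma, adjusted p 0.000600) among controls and by 0.63 (SE 0.21, adjusted p 0.0187) among silenced libraries. The latter call was lost without KYSE150 silenced 2 (adjusted p 0.0660) or without KYSE510 silenced 1 (0.0515) or 3 (0.0733). The matching call of S100A11 among silenced libraries (log2 0.48, SE 0.16, adjusted p 0.0214) was lost without KYSE150 silenced 2 (0.0942) or KYSE510 silenced 1 (0.0627) or 3 (0.0862), without a filter (0.0504) and with quantile normalization (0.0519). S100A2, a gene of basal epithelial cells that p53 family proteins can induce, did not pass among controls (log2 0.59, SE 0.27, adjusted p 0.0793). KYSE150 control 3 (352 RPKM) stood above the other 2 KYSE150 controls (232 and 156) and within the range of the KYSE510 controls (409, 307 and 347). Without that library the value was 0.89 (adjusted p 0.00845), and voom gave an adjusted p of 0.0212.

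The secreted members were lower in KYSE150 than in KYSE510. S100A9, whose product pairs with that of S100A8 to form calprotectin, read 2.51, 1.60 and 3.51 RPKM in KYSE150 controls and 11.4, 6.93 and 14.5 in KYSE510 controls. Tested with limma, the log2 difference was 1.90 (SE 0.41, adjusted p 0.00176), and 2.16 (SE 0.41, adjusted p 0.000723) among silenced libraries. S100A7, or psoriasin, an antimicrobial protein of inflamed skin, had 0 reads in all 6 KYSE150 libraries. KYSE510 controls had 5, 1 and 15 reads of it and KYSE510 silenced libraries 15, 6 and 66, so that the gene was present in every library of one line. Against the floor of 3 reads over the 3 KYSE150 libraries of a group, mean RPKM in KYSE510 was at least 5.57-fold higher among controls and at least 32.2-fold higher among silenced libraries. Each bound rests largely on 1 library: it was 2.61 among controls without KYSE510 control 3 and 12.3 among silenced libraries without KYSE510 silenced 3. No test between lines is given for S100A7, because of the filter and because a fitted value for a gene at 0 depends on the pseudocount. S100A8 was not tested, since only 1 library reached 0.5 RPKM. It had 1 read in total over KYSE150 controls, 2 over KYSE150 silenced, 7 over KYSE510 controls and 32 over KYSE510 silenced libraries.

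**Figure D2:**
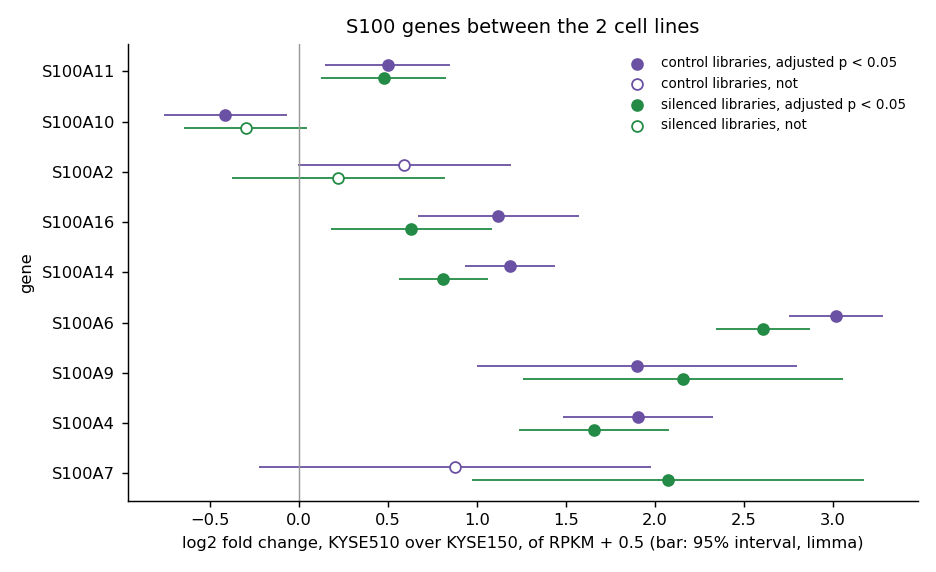
Log2 fold change of RPKM + 0.5, KYSE510 over KYSE150, for the 9 tested S100 genes (rows) among control and among silenced libraries; bars are 95% intervals from limma and filled points have an adjusted p under 0.05. S100A6 lies farthest from 0, at 3.02 among controls, and S100A10 is the only gene below 0 in either set; S100A4 and S100A7 passed the filter through KYSE510 only.

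The other genes of the region also tended to be higher in KYSE510. Within 1 Mb of the outermost members on chromosome 1, 81 of 150 other genes were tested, and 59 were called higher and 4 lower in KYSE510 controls (51 and 4 among silenced libraries), where 28.3% and 33.7% of all genes were (24.2% and 39.8% among silenced libraries). The median log2 difference of these 81 genes was 0.61 among controls and 0.49 among silenced libraries. For the 7 members that passed the filter in each line alone it was 1.12 and 0.63. The 81 genes were counted whether or not they passed in each line alone. Whether the lines differ in copy number of this region was not tested.

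The second comparison asked what HCP5 silencing did to the S100 genes. In KYSE150, S100A14 and S100A6 rose, and in KYSE510 none of the 9 members tested passed the threshold. In KYSE150 the 2 called of 9, both higher, compare with 0.376% of all genes called higher. The members' median log2 change was 0.50, against 0.08 over all genes. In KYSE510 0 of 9 were called by limma (3 at an unadjusted p under 0.05, against 6.35% of all genes), where 0.0393% of all genes were called in either direction, and the medians were 0.26 and -0.02. The labels give no pairing, and the last digits of the titles were taken to pair control and silenced libraries within a line. A fit with this replicate number as a block called 5 of 9 in KYSE150 (S100A2, S100A6, S100A9, S100A14 and S100A16), where 5.04% of all genes were called higher. In KYSE510 it called 1 of 9 (S100A9), where 0.0842% of all genes were called higher. Over the mean of both lines, S100A14 and S100A6 were called without the block (0.359% of all genes called higher) and S100A6, S100A9, S100A10 and S100A14 with it (2.06%). No member passed the test of a difference in change between the lines (limma, 0 called, 2 at an unadjusted p under 0.05, and 0 called with the block), and of all genes 0% were called and 12.2% had an unadjusted p under 0.05. None of the 9 was called lower in KYSE150 or for the mean, where 0.123% and 0.180% of all genes were. These comparisons share control libraries with the comparison of lines, so the KYSE150 controls enter both sets of values.

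Among the intracellular members, S100A6 was raised in every pair, as were S100A10 and S100A11. Its silenced libraries in KYSE150 read 73.2, 60.1 and 76.4 RPKM against 44.2, 39.2 and 48.0 in controls, without overlap. The log2 change was 0.67 (SE 0.12, limma, adjusted p 0.0451, 0.0084 with the replicate block). In KYSE510, 425, 381 and 479 RPKM after silencing lay above 374, 323 and 375 in controls, a change of 0.26 (SE 0.12, adjusted p 0.804, 0.143 with the block). The KYSE150 call depended on single libraries: it held without KYSE150 control 3 (adjusted p 0.0265) or KYSE150 silenced 2 (0.0480), and leaving out any other of the 12 libraries gave 0.0502 to 0.184. The same holds for the mean over lines (0.46, SE 0.08, adjusted p 0.0414, 0.0059 with the block), which held without KYSE150 control 3, KYSE150 silenced 2 or KYSE510 silenced 2 (0.0342, 0.0369 and 0.0446) and was 0.0799 to 0.110 without any other library.

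S100A10 and S100A11 were called in neither line, with or without the block. S100A10 went from 269.7, 207 and 321 RPKM to 297, 256 and 352 in KYSE150 (log2 0.19, SE 0.16, limma, adjusted p 0.533), with overlapping groups. In KYSE510 it read 204, 183 and 202 RPKM in controls and 250.1, 218 and 262 after silencing, without overlap (0.31, SE 0.16, adjusted p 0.851, 0.119 with the block). Its mean change over lines was 0.25 (SE 0.11, limma adjusted p 0.427), called only with the block (0.0346) and not with the block and centring together (0.0667). S100A11 read 456, 341 and 471 RPKM in silenced KYSE150 and 607, 486 and 669 in silenced KYSE510 libraries, changes of 0.21 and 0.19 (SE 0.16 each, adjusted p 0.492 and 0.942). S100A4 had 0.520, 0.346 and 0.543 RPKM in silenced KYSE150 and 2.28, 2.03 and 3.53 in silenced KYSE510 libraries, overlapping with its controls in both lines (log2 0.20 and -0.04, SE 0.19 each, adjusted p 0.597 and 0.998).

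S100A14 had the clearest change among the epithelial members. KYSE150 silenced libraries read 68.2, 64.3 and 70.9 RPKM against 43.9, 34.5 and 39.6 in controls, a log2 change of 0.78 (SE 0.11, 95% interval 0.53 to 1.04, limma, adjusted p 0.0171, 0.0084 with the block). In KYSE510, 126, 108 and 124 RPKM lay above 101, 77.2 and 92.4, a change of 0.41 (SE 0.11, adjusted p 0.425, 0.0896 with the block). The KYSE150 call was lost without KYSE150 control 2 (adjusted p 0.0703) and without KYSE150 silenced 1 (0.0551), 2 (0.0570) or 3 (0.0805). The mean over lines, 0.60 (SE 0.08, limma adjusted p 0.00799), was called without each of the 12 libraries in turn, with 0.0314 as the highest adjusted p. S100A16 rose in KYSE150 only with the block: 100.5, 89.8 and 112 RPKM after silencing against 75.7, 48.2 and 85.1 in controls did not overlap (log2 0.56, SE 0.21, adjusted p 0.203, 0.0373 with the block). In KYSE510 its silenced libraries (161, 129 and 183 RPKM) overlapped with controls (0.08, SE 0.21, adjusted p 0.986). S100A2 read 325, 259.7 and 429 RPKM in silenced KYSE150 libraries, overlapping with controls (0.50, SE 0.27, adjusted p 0.348, 0.0409 with the block). In silenced KYSE510 libraries it read 418, 311 and 442 RPKM (0.13, SE 0.27, adjusted p 0.977).

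S100A9 showed the largest log2(RPKM + 0.5) changes of the tested members in both lines, although in KYSE510 the ratio of mean RPKM was 2.92 for S100A9 and 4.49 for S100A7, and voom gave log2 changes of 1.5 and 2.13. In KYSE150 it went from 2.51, 1.60 and 3.51 RPKM to 6.40, 4.12 and 8.10, and in KYSE510 from 11.4, 6.93 and 14.5 to 24.1, 17.6 and 54.1, without overlap in either line. The log2 changes were 1.14 and 1.40 (SE 0.41 each, limma, adjusted p 0.198 and 0.440), and with the block the adjusted p was 0.0186 and 0.0395. KYSE510 silenced 3 was far above the other 2 silenced libraries of that line, and without it the KYSE510 change was 0.94. The mean over lines was 1.27 (SE 0.29, adjusted p 0.0998, 0.0059 with the block). S100A7 could be followed only in KYSE510, where 0.388, 0.0738 and 1.02 RPKM in controls and 1.17, 0.530 and 4.95 after silencing overlapped. It passed the filter through 3 silenced and 1 control library of that line. Its change was 1.20 (SE 0.50, adjusted p 0.743, 0.0905 with the block) and was 0.51 without KYSE510 silenced 3. S100A8 had 0, 3 and 4 reads in KYSE510 controls and 8, 6 and 18 in KYSE510 silenced libraries, which did not overlap. Without a filter on low values its change there was 0.66 (limma, adjusted p 0.265).

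**Figure D3:**
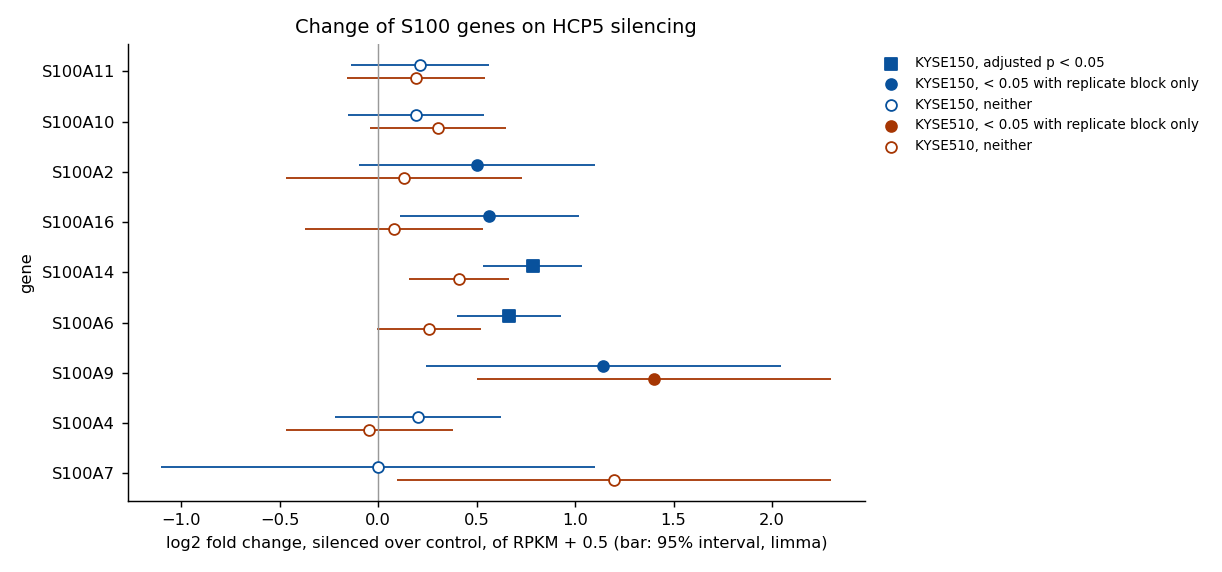
Log2 fold change of RPKM + 0.5, silenced over control, for the 9 tested S100 genes (rows) in KYSE150 (blue) and KYSE510 (brown); bars are 95% intervals from limma without the replicate block. Squares mark S100A14 and S100A6 in KYSE150, called without the block, and filled circles mark genes called only with it; 8 of 9 points in KYSE150 lie above 0 and S100A7 there is at 0.

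Scaling bears on these small changes. Centring each library on its median over the genes tested moved the median change of all genes in KYSE150 from 0.08 to -0.05, and with it S100A14 fell to 0.65 (limma, adjusted p 0.0601) and S100A6 to 0.54 (0.0897), so that 0 of 9 were called and the members' median was 0.37. Over all genes, centring turned 67 higher and 22 lower calls in KYSE150 into 54 and 62, and 64 and 32 for the mean over lines into 64 and 60. With the block and centring together, S100A6 (adjusted p 0.0240), S100A9 (0.0273) and S100A14 (0.0139) were called in KYSE150, S100A9 (0.0481) in KYSE510 and 3 of 9 members (S100A6, S100A9 and S100A14) for the mean over lines. Using only the 6 libraries of KYSE150, S100A14 had an adjusted p of 0.155 and S100A6 of 0.219.

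Within same-numbered pairs, the silenced library was higher in 6 of 6 pairs for S100A2, S100A6, S100A9, S100A10, S100A11 and S100A14, 6 of the 9 tested, where 6.70% of all genes were. With library medians centred, 4 of 9 were (S100A6, S100A9, S100A10 and S100A14), where 4.97% of all genes were. S100A9 differed by 1.05 to 1.87 on the log2 scale over the 6 pairs, S100A14 by 0.32 to 0.89 and S100A6 by 0.19 to 0.72. Silenced and control libraries did not overlap for 4 of 9 members in KYSE150 (S100A6, S100A9, S100A14 and S100A16; 13.7% of all genes with every silenced library above) and for 4 of 9 in KYSE510 (S100A6, S100A9, S100A10 and S100A14; 5.22%). After centring these counts were 4 (7.82% of all genes) and 3 (5.95%), S100A6 being the one lost in KYSE510. Of the 81 neighbouring genes tested, 0 were called by limma in either line. Over all genes, 0.376% were called higher and 0.123% lower in KYSE150, and 0.0393% in either direction in KYSE510. At such low shares, 0 calls among 81 genes say little. Of these neighbours, 7 were higher in 6 of 6 pairs, where 6.70% of all genes were.

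**Figure D4:**
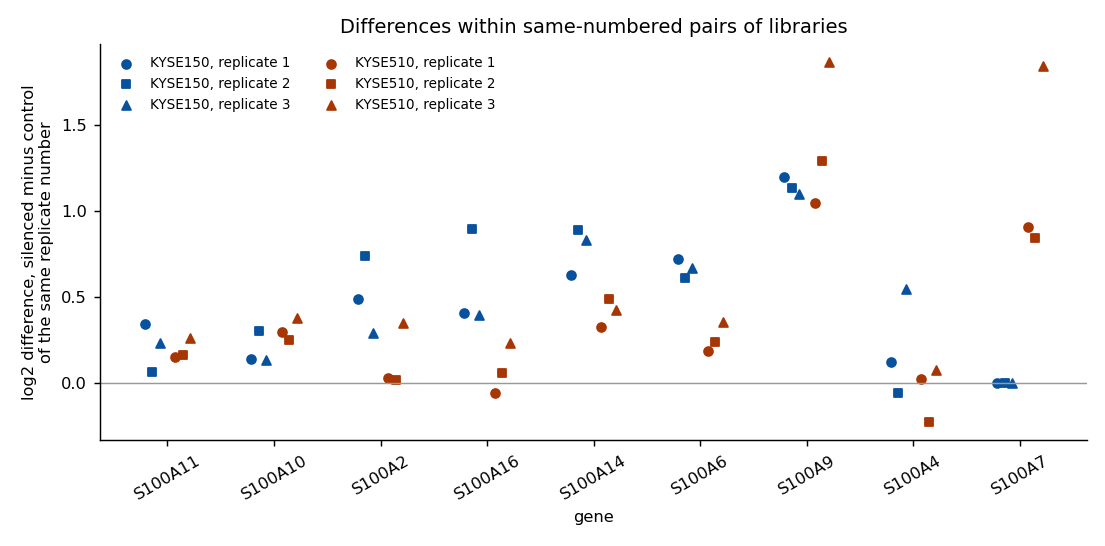
Difference of log2(RPKM + 0.5), silenced minus control library of the same replicate number, for the 9 tested S100 genes; blue is KYSE150, brown is KYSE510, and the marker shape gives the replicate number. All 6 points of S100A9 lie above 1, between 1.05 and 1.87, and S100A7 is at 0 in the 3 KYSE150 pairs.

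The members also moved together between replicates. Replicate 2 was the lowest of 3 for 7 of 9 tested members in KYSE150 controls, 8 in KYSE150 silenced, 8 in KYSE510 controls and 9 in KYSE510 silenced libraries. Among all genes, replicate 2 was the lowest for 43.9%, 23.7%, 23.1% and 34% in the same order. Replicate 3 was the highest for 8 of 9 members in each silenced group, and for 49.8% of all genes in KYSE150 silenced and 39.2% in KYSE510 silenced libraries. After subtraction of the mean of each line, the 36 pairs among the 9 tested members had a Pearson r of 0.192 to 0.946 over the 12 libraries, with a median of 0.730. The 3 highest were S100A6 with S100A14 (0.946), S100A2 with S100A16 (0.932) and S100A2 with S100A10 (0.901), while S100A4 had 0.192 with S100A2 and 0.196 with S100A10. These libraries share the silenced and control groups and the replicate numbers, so r describes both sources of variation at once.

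**Figure D5:**
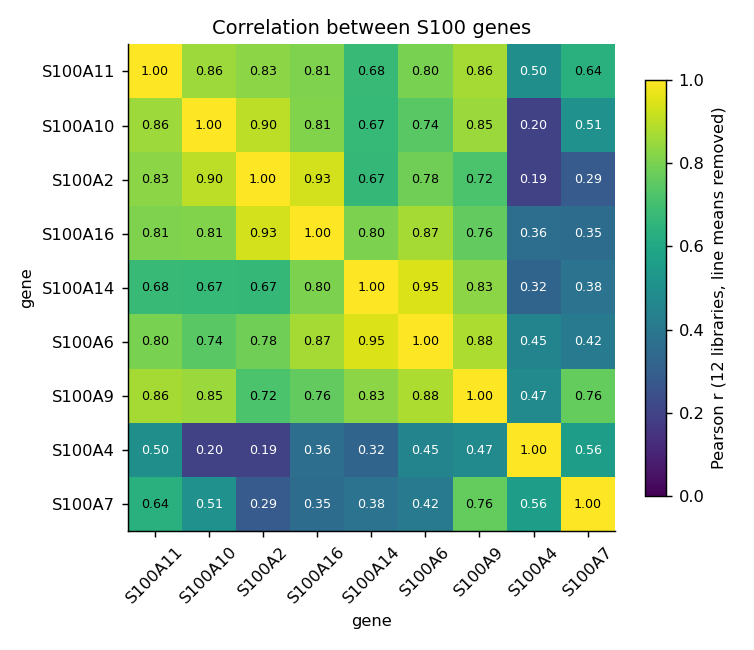
Pearson r of log2(RPKM + 0.5) between the 9 tested S100 genes over 12 libraries, after the mean of each cell line was subtracted; colour and number give r, and rows and columns are genes. S100A6 with S100A14 is highest off the diagonal (0.946), and the lowest values involve S100A4 and S100A7. S100A7 varies only over the KYSE510 libraries.

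On the same scale, 7305 genes outside the family with a mean of at least 5 RPKM were ranked by r with each member. S100A9 was most like TNS4 (r 0.967), which encodes a focal adhesion protein, and GNA15 (0.957), a G protein subunit. S100A11 was most like the keratin genes KRT17 (0.949) and KRT6A (0.944). S100A2 was most like GALNT18 (0.979) and ITGA3 (0.979), S100A6 like RHOC (0.965) and RP11-426L16.10 (0.964), S100A14 like SLC39A6 (0.970) and DYNC1LI2 (0.953), and S100A16 like CTC-250I14.6 (0.975) and LANCL2 (0.969). S100A10 was most like RP11-993B23.3 (0.976) and PTHLH (0.972), S100A7 like WFDC2 (0.976) and PHLDB2 (0.962), and S100A4 like ARCN1 (0.910) and CD55 (0.871). S100A7 had 0 reads in every KYSE150 library, so its values varied only over the KYSE510 libraries. Of these, KYSE510 silenced 3 had 66 reads and the others 1 to 15. These are the top 2 of many genes over 12 libraries, so high values of r are a description of rank only.

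Squamous markers were measured beside the members. KRT14, a keratin of basal cells, read 28.5, 23.0 and 81.2 RPKM in KYSE150 controls and 127, 91.2 and 369 after silencing, a log2 change of 2.09 (SE 0.51, limma, adjusted p 0.0964, 0.0079 with the block). In KYSE510 it changed by 1.53 (adjusted p 0.560, 0.0395 with the block). Of the 10 squamous markers 0 were called in either line without the block, and with it 7 were higher in KYSE150 (5.04% of all genes) and 1 in KYSE510 (0.0842%). The summed RPKM of the list ran from 1112 to 1782 in KYSE150 controls, from 1383 to 2984 in KYSE150 silenced, from 1543 to 2086 in KYSE510 controls and from 1912 to 3138 in KYSE510 silenced libraries. TP63, the transcription factor of basal squamous cells, was called over the mean of both lines (0.32, adjusted p 0.0483, 0.0161 with the block). The part of these markers in the S100 changes was not tested. Myeloid cells, a main source of S100A8 and S100A9 in tissue, had markers that summed to between 0.0764 and 0.497 RPKM over the 12 libraries. The sum was 0.0764 to 0.160 RPKM in KYSE150 controls, 0.133 to 0.317 in KYSE150 silenced, 0.208 to 0.432 in KYSE510 controls and 0.324 to 0.497 in KYSE510 silenced libraries, where CD14 reached 0.384, LYZ and TYROBP were at 0, and PTPRC had at most 1 read in a library.

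Members that work as complexes were compared within libraries. S100A8 RPKM per 100 RPKM of S100A9 was 0 to 1.25 in KYSE150 and 0 to 1.70 in KYSE510, so the S100A8 transcript was scarce beside that of its calprotectin partner in every library. S100A10 stood at 2.65 to 3.33 times the RPKM of ANXA2, the gene of the annexin it binds. The size of this ratio depends on the summed exon lengths behind RPKM, and ANXA2 had more reads than S100A10 in every group. The reads were 49786 against 26148 over KYSE150 controls and 47754 against 23298 over KYSE510 controls. In KYSE510 the RPKM ratio was 2.73 to 2.85 in controls and 3.17 to 3.30 in silenced libraries, without overlap. In KYSE150 controls (2.65 to 3.33) it overlapped with silenced libraries (2.79 to 3.18). ANXA2 itself was lower in KYSE510 controls (log2 -0.33, SE 0.11, limma, adjusted p 0.0198) and was not called on silencing. S100A9 made up 0.197% to 0.281% of the members' summed RPKM in KYSE150 controls, 0.383% to 0.532% in KYSE150 silenced, 0.475% to 0.828% in KYSE510 controls and 1.07% to 2.44% in KYSE510 silenced libraries.

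Of 11 other S100 genes, 8 were in the table and 4 could be tested. S100P, an S100 gene outside the chromosome 1 cluster, had 0 to 2 reads per library in KYSE150 and 17.0 to 23.9 RPKM in KYSE510 controls (fitted log2 5.35, a value that depends on the pseudocount). It passed the filter on low values through KYSE510 only. S100A13 (27.7 ± 1.14 against 34.8 ± 2.03 RPKM, SD, n = 3) and S100A3 (0.516 ± 0.313 against 1.42 ± 0.282) were also higher in KYSE510 controls, with adjusted p of 0.00423 and 0.00848, and S100A1 was not called (0.811). S100A13 shares 235 exon bases with S100A1 on the other strand and 536 with RP1-178F15.5 on its own, so its reads cannot be fully assigned. None of the 4 was called on silencing, with or without the block. S100A7 has a close copy in S100A7A, which had 7 reads in all 12 libraries. Among the members, only S100A6 shares exon bases with another gene of the table, 23 of 971, with BX470102.3 on the other strand.

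Proteins that carry an S100 domain within a longer chain, the fused members of the family, split by line. FLG, which encodes filaggrin of the skin barrier, was 11.3 ± 1.71 RPKM in KYSE150 controls and 0.443 ± 0.214 in KYSE510 controls (SD, n = 3). Its log2 difference from limma, -3.66, is given as a description because of the filter on low values. TCHH, which encodes trichohyalin, and its neighbour TCHHL1 had 1 read each over the KYSE150 libraries and 2.67 ± 0.388 and 1.26 ± 0.138 RPKM in KYSE510 controls. FLG passed that filter through KYSE150 only, and TCHH and TCHHL1 through KYSE510 only. For all 3 the comparison between lines is therefore not independent of the filter. The other 4 fused genes were not tested, and none of the 3 was called on silencing. Of 10 tested annexins, 2 were called higher and 5 lower in KYSE510 controls (28.3% and 33.7% of all genes), the largest differences being ANXA1 (log2 -1.45, adjusted p 1.00e-06), ANXA3 (-1.01) and ANXA8L1 (-0.68), of which ANXA8L1 has a near-identical copy in ANXA8 and is uncertain. On silencing 0 of 10 annexins were called, and with the block 1, ANXA1, was higher in KYSE150 (0.30, adjusted p 0.0359). With the block 5.04% of all genes were called higher there.

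Receptors and intracellular partners of S100 proteins were counted on silencing beside shares over all genes of 0.376% higher and 0.123% lower in KYSE150 and 0.0393% in either direction in KYSE510. With the replicate block, 5.04% of all genes were called higher in KYSE150 and 2.06% over the mean of both lines. Of 7 tested receptors 0 were called in either line, and with the block BSG, which encodes basigin, a receptor for S100A9, was higher in KYSE150 (log2 0.27, limma, adjusted p 0.0450). AGER, which encodes the receptor RAGE, was not called in any comparison. Between control lines 3 receptors were called higher in KYSE510, CD36 (1.24), MCAM (0.79) and ALCAM (0.66), and 0 lower, where 28.3% and 33.7% of all genes were. CD36 and MCAM passed the filter on low values through KYSE510 only, so their comparison between lines is not independent of it. Of 15 intracellular partners, 0 were called on silencing, and with the block AHNAK, which encodes a large scaffold protein bound by S100A10 and annexin A2, was higher in KYSE150 (0.38, adjusted p 0.0195) and over the mean of both lines (0.29, adjusted p 0.0150). Between control lines 4 partners were higher and 6 lower in KYSE510, near the shares of 28.3% and 33.7% over all genes. The largest differences were HLTF (2.57, with 5 reads over the KYSE150 controls), FABP5 (1.37) and PPFIBP1 (-1.27). HLTF passed the filter through KYSE510 only and TRPV6, another partner, through KYSE150 only.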

How the data were processed

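RNA-seq of 12 libraries was used as the authors' deposited RPKM table, with 38516 genes and 12 value columns. Per the file headers, the position, strand and length columns have the form featureCounts writes, and the deposited length column (other unit: bases of exon) was used with RPKM to recover reads. Per the submitters' processing notes, HISAT2, DESeq and GRCh38 were named, with no role given. The annotation release, the use of strand and any filter are not given in the sources used here. RPKM times length gave whole reads for 100% of values (tolerance 0.1), so the deposited RPKM were scaled to assigned reads, and a few abundant genes can shift all values of a library. Intervals on reads would cover counting error only.

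Values were tested as log2(RPKM + 0.5) over 17823 genes with at least 0.5 RPKM in at least 3 libraries. limma 3.58.1 in R 4.3.3 (4 group means, all 12 libraries, eBayes with trend, 8 residual degrees of freedom, two-sided, Benjamini-Hochberg over all genes tested, threshold 0.05) gave 6 comparisons: the silencing change within KYSE150 and within KYSE510, its mean and its difference over the lines, and KYSE510 against KYSE150 among control and among silenced libraries. Of the 10 members 9 passed the filter; S100A4 and S100A7 passed through KYSE510 only. A gene near 0 in one line passes through the other, so its comparison between lines is not independent of the filter. The method was tested on simulated data. Groups and lines came from the labels, and replicate numbers from the last digit of each title. Deviations from group means correlated at 0.147 to 0.415 between same-numbered control and silenced libraries (6 pairs) and at -0.385 to 0.184 between other-numbered ones. On this ground the numbers were taken as pairs, although KYSE150 control 2 was closer to silenced 1 (0.184) than to silenced 2 (0.147). Deviations from a mean of 3 libraries sum to 0, so positive values between some libraries go with negative values between others. The check also used the same data as the block fit. The block fit left 4 residual degrees of freedom. Comparisons between lines lie between blocks and have no blocked value.

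The members and all gene lists (other S100 genes, fused proteins, annexins, receptors, intracellular partners, squamous, myeloid and fibroblast markers) were chosen with earlier results of these data known. All 10 members were named, every other S100 gene tested, up to 3 called genes of each list by absolute log2 fold change, and the 2 genes most like each member. Alternatives changed the pseudocount, filter, block, libraries fitted, trend, scaling and test (voom on recovered reads), and left out each library. Promoters came from RefSeq (GRCh38.p14), 250 bases before to 50 after each start.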

Additional observations from a re-analysis of the deposited data

How the results depend on the processing

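S100A6 and S100A14 in KYSE150 lay near the threshold, so the number of members called there (2) changed easily: 1 with a pseudocount of 0.1, without a filter on low values or without the variance trend, 0 with library medians centred or with the 6 libraries of the line only, and 0 to 2 on leaving out single libraries. The numbers called were 1, 1, 1 and 1 to 2 for the mean over lines (2 as reported) without a filter, without the trend, with medians centred and on leaving out single libraries. With the replicate block they were 5 in KYSE150, 1 in KYSE510 (0 without) and 4 for the mean, and with the block and centring together, an alternative chosen after seeing the data, 1 in KYSE510. The block changed no other call of a member. Counts over all genes moved more: 89 in KYSE150 became 1194 with the block, 849 with the block and centring, 7 with 6 libraries, 154 with quantile normalization, 161 with voom, and 15 to 1291 on leaving out single libraries, the highest without KYSE150 control 3. In KYSE510, 7 became 20 with the block, 29 with the block and centring, 44 without a filter, 11 with quantile normalization, 23 with voom, 3 with a pseudocount of 0.1, 0 with 6 libraries and 2 to 7 on leaving out single libraries. For the mean, 96 became 488 with the block, 431 with the block and centring, 173 with voom and as few as 43 without KYSE150 silenced 2. Signs turned only for values near 0. On leaving out single libraries S100A4 ran from -0.25 to 0.10 in KYSE510 (positive without KYSE510 control 3, silenced 1 or silenced 2) and from -0.022 to 0.15 for the mean (negative without KYSE510 silenced 3). S100A16 in KYSE510 ran from -0.051 to 0.22 (negative without KYSE510 control 2 or silenced 3). The difference between lines ran from -0.20 to 0.59 for S100A9 (negative without KYSE510 control 2 or silenced 3), from -0.033 to 0.28 for S100A10 (negative without KYSE150 control 3) and from -0.17 to 0.11 for S100A11 (positive without 6 of the 12 libraries), which was also 0.13 centred, 0.13 with block and centring and 0.13 with voom. The cause was not tested. The planned edgeR test on recovered reads was not run, because the deposited unit is RPKM. Depth limits S100A8, S100A7 and S100A4 in KYSE150, each with under 20 reads per library there.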
